A study of Mus musculus with 14 samples.

Results

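Oligodendrocyte lineage genes were examined in cultures of mouse astrocytes that lacked connexin43 (Cx43, the gap junction protein encoded by Gja1), that had received a small interfering RNA (siRNA) against Cx43, or that were wild type. The set holds 9 genes, chosen by symbol: Pdgfra, Cspg4, Olig1, Olig2 and Sox10 of the progenitor stage, and Mbp, Mog, Cnp and Mag of myelin. They are 9 of 13661 genes named on the array and have 13 of its 18179 probes with 1 gene symbol. All 13 probes had a value in at least 1 sample, and 8 probes of 7 genes had values enough to be tested; Mbp and Mog did not.

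The study asked how the transcriptome of Cx43 null astrocytes compares with that of wild-type astrocytes in which Cx43 had been reduced acutely. The groups used here are 4 Cx43 null samples (replicates 1 to 4), 4 Cx43 siRNA samples (replicates 1 to 4; 20 ug of siRNA construct, for 36 h per the design text and 48 h in the protocol for protein) and 3 wild-type samples (replicates 3, 4 and 6, of 6 that are labelled). All came from newborn mice, grown in the same serum-containing medium to confluence before use; the sample titles call the cells cortical, while the protocol describes whole brain tissue with the littermates cultured apart. In each sample 20 ug of total RNA was labelled directly, with Cy3 in odd-numbered and Cy5 in even-numbered replicates, and hybridised to spotted oligonucleotides. The labels give neither the null allele nor the strain, and name no transfection of the wild-type or null cells. The design text speaks of 4 independent cultures per group, but the labels link no sample to a culture. The p-values thus reflect the spread among the samples at hand, and that spread may be technical.

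Oligodendrocytes are the cells that wrap axons of the central nervous system in myelin. They arise from progenitors that carry the receptor Pdgfra and the proteoglycan Cspg4 (NG2) on their surface, divide in response to platelet-derived growth factor, and depend on the transcription factors Olig1, Olig2 and Sox10; on differentiating they switch off the receptor and make Mbp, Mog, Cnp and Mag. Progenitors commonly grow on top of the astrocyte layer in primary glial cultures, and Olig2 is also found in some astrocytes.

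Each deposited value was taken as the log2 signal of a probe, a scale inferred from the values, relative to the median of its print block in that sample, so 0 is the typical probe and levels of different probes cannot be set against each other. Between 53.1% and 59.0% of probes had a value in null and siRNA replicates 1 and 2, and between 61.8% and 79.8% in replicates 3 and above. Across the 14243 probes measured in all 11 samples, named or not, null replicates 1 and 2 correlated at 0.990 with each other, and siRNA replicates 1 and 2 at 0.987. With replicates 3 and 4 of their group they correlated at 0.709 to 0.786. The labels name no batch. Comparisons therefore carried this replicate set and the dye as terms. Wild-type replicates 3, 4 and 6 were put in the later set by replicate number alone, and whether they share it was not tested. A fitted difference from wild type is thus adjusted for the set, by what separates the sets in null and siRNA samples, and need not equal the difference of the group means. Wild-type replicates 1, 2 and 5 correlated at 0.370, 0.380 and -0.020 with the mean of the other samples, against 0.894 to 0.948 for the 11 samples used, and were left out. Gja1, the targeted gene, read -1.17, -1.06, 2.82 and 3.03 in null replicates 1 to 4, 1.93, 2.14, 5.47 and 5.70 in siRNA replicates 1 to 4, and 6.08, 7.53 and 4.82 in wild-type replicates 3, 4 and 6. It fell by 3.31 ± 0.58 (SE) on the log2 scale in null against wild-type samples (limma, adjusted p = 0.0475), and fell by 2.90 ± 0.48 in null against siRNA samples (adjusted p = 0.00748). Consecutive samples of opposite dye may share an array, which the labels do not say; with such pairs as a random block neither Gja1 difference passed (adjusted p = 0.277 and 0.0521). The difference from wild type also failed to pass without 9 of the 11 samples, each left out in turn (adjusted p up to 0.237, without null replicate 3). In siRNA against wild-type samples Gja1 differed by -0.41 ± 0.58 (adjusted p = 0.733), so a fall of the targeted gene in the samples labelled siRNA was not called here.

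The tissue label was read against marker lists. Of 14 astrocyte markers 10 could be tested, and the mean log2 value of the 9 measured in every sample ran from 2.87 to 3.93 in null, 1.89 to 3.69 in siRNA and 3.80 to 4.13 in wild-type samples; Gfap, the intermediate filament that defines astrocytes, had no value in any of the 11 samples. Microglial markers were present too, with a mean over 8 markers of 1.88 to 4.30 in null, 1.12 to 1.88 in siRNA and 2.78 to 3.57 in wild-type samples. In bulk RNA, fewer oligodendrocyte lineage cells and less RNA per cell cannot be told apart.

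The progenitor genes begin with the transcription factors. Sox10 was the single gene of the set that passed a test, and only between null and siRNA samples. Sox10 is a transcription factor with an HMG box that binds DNA at motifs with the core ACAAT, which reads ATTGT on the opposite strand, and Olig2 and Cspg4 are shown here because they are the genes of the set whose RefSeq promoter (GRCm38.p6) holds that core. Promoters were found for 6 of the 9 genes (Pdgfra, Cspg4, Olig2, Cnp, Mog and Mag), and each printed window covers 250 bases before the start and 50 after it, 5′ to 3′ on the gene's strand, with the core in capitals. The Olig2 window is chr16:91225300-91225599, plus strand, and the Cspg4 window is chr9:56864854-56865153, plus strand.
Olig2: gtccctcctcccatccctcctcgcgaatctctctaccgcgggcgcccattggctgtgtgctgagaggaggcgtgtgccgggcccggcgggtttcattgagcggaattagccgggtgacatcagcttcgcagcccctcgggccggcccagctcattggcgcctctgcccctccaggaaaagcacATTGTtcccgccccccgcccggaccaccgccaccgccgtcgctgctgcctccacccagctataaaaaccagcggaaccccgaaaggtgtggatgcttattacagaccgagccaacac
Cspg4: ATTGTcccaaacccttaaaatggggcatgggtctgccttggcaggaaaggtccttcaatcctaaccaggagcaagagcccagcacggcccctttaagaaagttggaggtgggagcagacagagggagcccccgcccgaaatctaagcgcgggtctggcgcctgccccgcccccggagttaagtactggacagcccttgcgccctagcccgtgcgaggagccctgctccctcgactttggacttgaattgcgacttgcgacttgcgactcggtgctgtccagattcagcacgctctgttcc
The match begins 67 bases before the start in Olig2 and 250 bases before it in Cspg4. Both strands were searched, and 31.0% of 32817 promoters in the table (10185) hold a match to this 5-base core, so a match in 2 of 6 genes is a description of the letters and says nothing of binding.

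Sox10 (chr15:79154913-79164490) read 0.45, 0.41, 0.21 and 0.48 in null replicates 1 to 4, -1.60, -0.81, -1.34 and -1.34 in siRNA replicates 1 to 4, and 0.02, -0.51 and -0.42 in wild-type replicates 3, 4 and 6. Every null sample lay above every wild-type sample, and every siRNA sample below them, so the 3 groups did not overlap. Among tested probes with a value in every sample of the groups compared, 3.69% lay wholly higher in null than in wild-type samples, 10.8% wholly lower in siRNA than in wild-type samples and 6.37% wholly higher in null than in siRNA samples. Sox10 averaged 0.39 ± 0.12 in null and -1.27 ± 0.33 in siRNA samples (SD, n = 4 each). It was higher in null samples by 1.66 ± 0.30 on the log2 scale (SE; 3.16-fold; 95% interval 0.99 to 2.32; limma, adjusted p = 0.0113). The difference was 1.63 within replicates 1 and 2 and 1.69 within replicates 3 and 4. It ran from 1.22 to 2.05 over the 4 same-numbered pairs, null being higher in 4 of 4. Null and siRNA replicates 1 and 2, and likewise 3 and 4, were alike within their group (r = 0.923 to 0.990). The 4 pairs are thus not independent comparisons, for Sox10 or for the genes below. The share of all probes higher in 4 of 4 pairs was not computed. With the replicate number as a block the call held (adjusted p = 0.00999), but it was lost with array pairs as a random block (adjusted p = 0.111), without the replicate set (0.1), with all 14 samples as deposited (0.0512), with 13 samples (0.0655) and without siRNA replicate 4 (0.0522).

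Against wild type the same Sox10 probe did not pass. Null samples differed from wild-type samples by 0.64 ± 0.36 (95% interval -0.15 to 1.44; limma, adjusted p = 0.428) and siRNA samples by -1.01 ± 0.36 (95% interval -1.81 to -0.22; adjusted p = 0.117). Wild-type samples averaged -0.30 ± 0.29 (SD, n = 3). In the 13-sample fit, where wild-type replicates 1 and 2 were moved by whole grid positions to the place where they matched the other samples, these replicates read -2.69 and -1.29 for Sox10, while the null minus wild-type difference was 1.45 (adjusted p = 0.172) and the siRNA minus wild-type difference was -0.21 (adjusted p = 0.843). The size of both Sox10 differences from wild type therefore rests on which wild-type samples are used.

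Olig2 (chr16:91225550-91228677), a basic helix-loop-helix factor needed to specify the lineage, read 2.59, 2.81, 4.00 and 4.26 in null replicates, 1.97, 2.64, 2.82 and 3.45 in siRNA replicates, and 4.75, 4.35 and 3.99 in wild-type replicates. All 4 siRNA samples lay below all 3 wild-type samples, while null samples overlapped wild-type ones through replicates 3 and 4. The siRNA minus wild-type difference was -1.05 ± 0.39 (95% interval -1.91 to -0.19), with an unadjusted p of 0.0212 in limma and an adjusted p of 0.133, so it did not pass. Such a separation, siRNA wholly below wild type, was shared by the 10.8% of probes given above. Null samples differed from wild-type samples by -0.35 ± 0.39 (adjusted p = 0.729) and from siRNA samples by 0.69 ± 0.33 (adjusted p = 0.218), with null above siRNA in 4 of 4 same-numbered pairs (0.17 to 1.18).

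Olig1 (chr16:91269769-91271939), the neighbouring paralogue of Olig2 that acts in maturation and remyelination, read 5.10, 5.48, 6.47 and 6.02 in null replicates, 4.93, 5.67, 5.54 and 6.17 in siRNA replicates, and 7.39, 7.82 and 5.50 in wild-type replicates. Wild-type replicates 3 and 4 stood above all other samples, but wild-type replicate 6 lay among the null and siRNA samples. The differences were -0.75 ± 0.58 for null minus wild type (adjusted p = 0.588), -0.93 ± 0.58 for siRNA minus wild type (adjusted p = 0.372) and 0.19 ± 0.48 for null minus siRNA (adjusted p = 0.85). With the replicate number as a block, which compares wild type through replicates 3 and 4 only, the siRNA difference was -1.64 and passed (adjusted p = 0.0325). Without wild-type replicate 6 alone it was again -1.64 (adjusted p = 0.0325), so the Olig1 call turns on that sample; with array pairs as a random block the adjusted p was 0.719.

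**Figure D1:**
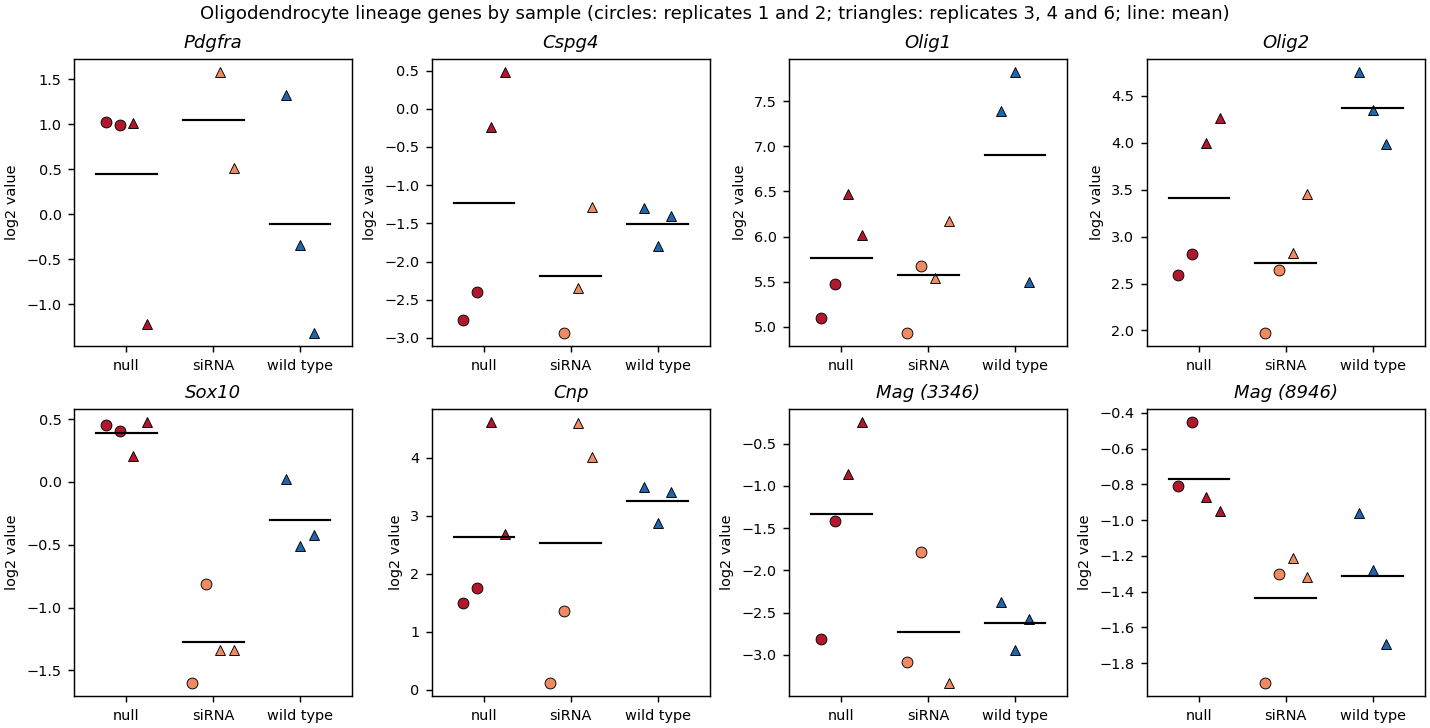
Deposited log2 values (y axis; relative to the print-block median, with a separate scale in each panel) of the 8 tested probes by group: null, siRNA and wild type. Circles are replicates 1 and 2, triangles replicates 3, 4 and 6, and lines group means; Sox10 separates the 3 groups, with null samples at 0.21 to 0.48 and siRNA samples at -1.60 to -0.81.

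The surface markers of progenitors did not pass in any comparison. Pdgfra (chr5:75151322-75198206), the receptor for platelet-derived growth factor A, read 1.03, 0.99, 1.01 and -1.22 in null replicates, had no value in siRNA replicates 1 and 2 and 1.58 and 0.52 in siRNA replicates 3 and 4, and read 1.33, -0.34 and -1.32 in wild-type replicates. The wild-type samples alone spanned nearly the whole range of the gene. Its fitted differences were -0.23 ± 0.58 for null minus wild type (adjusted p = 0.901), 0.92 ± 0.58 for siRNA minus wild type (adjusted p = 0.386) and -1.16 ± 0.63 for null minus siRNA (adjusted p = 0.296). Both differences that involve siRNA rest on 2 siRNA samples.

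Cspg4 (chr9:56865104-56899870), whose product NG2 also marks pericytes, read -2.76, -2.40, -0.24 and 0.48 in null replicates, had no value in siRNA replicate 1 and -2.94, -2.35 and -1.28 in siRNA replicates 2 to 4, and read -1.30, -1.80 and -1.41 in wild-type replicates. Null replicates 3 and 4 were the highest of the 10 measured samples, and null replicates 1 and 2 were among the lowest, so the null group spanned both sides of wild type. Ranked by value among the probes measured in a sample, Cspg4 stood at percentiles 5.2 to 56.3, so part of its values were low. Null exceeded wild type by 1.45 ± 0.47 once the replicate set was in the model (95% interval 0.41 to 2.48; unadjusted p = 0.0107 and adjusted p = 0.165 in limma), and by 0.31 without it (adjusted p = 0.953). Null exceeded siRNA by 1.41 ± 0.42 (95% interval 0.48 to 2.34; adjusted p = 0.0735), as a difference of 0.36 within replicates 1 and 2 and 1.93 within replicates 3 and 4. The null minus siRNA difference passed in the samples of replicates 3 and above alone (1.93, adjusted p = 0.0365), after quantile normalization (1.37, adjusted p = 0.049) and without wild-type replicate 3 (1.48, adjusted p = 0.0426). It did not pass with array pairs as a random block (1.32, adjusted p = 0.313), and over samples left out in turn it ran from 0.98 to 1.93, lowest without siRNA replicate 3 (adjusted p = 0.327). The siRNA minus wild-type difference was 0.04 ± 0.46 (adjusted p = 0.975).

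Of the myelin genes, Cnp and Mag were tested and neither passed. Cnp (chr11:100574909-100591875), a phosphodiesterase of the myelin sheath that is made from the progenitor stage on, read 1.49, 1.75, 4.62 and 2.68 in null replicates, 0.12, 1.36, 4.60 and 4.02 in siRNA replicates, and 3.49, 2.87 and 3.41 in wild-type replicates. The split in Cnp ran between replicate sets, not groups: null and siRNA replicates 1 and 2 held the 4 lowest values. Null minus siRNA was 0.11 ± 0.50 (95% interval -0.98 to 1.19; adjusted p = 0.919), made of 0.88 within replicates 1 and 2 and -0.66 within replicates 3 and 4. Cnp averaged 2.63 ± 1.42 in null, 2.53 ± 2.14 in siRNA and 3.25 ± 0.34 in wild-type samples (SD, n = 4, 4 and 3), while the set-adjusted differences from wild type had the other sign, 0.73 ± 0.59 in null (adjusted p = 0.609) and 0.63 ± 0.59 in siRNA samples (adjusted p = 0.581).

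Mag (chr7:30899175-30914922), an adhesion protein of the myelin layer next to the axon, has 2 probes. Probe 8946 read -0.81, -0.45, -0.87 and -0.95 in null replicates, -1.91, -1.30, -1.21 and -1.32 in siRNA replicates, and -0.96, -1.28 and -1.69 in wild-type replicates. Null samples lay above all other samples, narrowly so against wild-type replicate 3. Null minus siRNA was 0.67 ± 0.32 (adjusted p = 0.222), null being higher in 4 of 4 same-numbered pairs, and null minus wild type 0.56 ± 0.38 (adjusted p = 0.531). The background of such separations is the 6.37% against siRNA and the 3.69% against wild type given for Sox10. Probe 3346 read -2.81, -1.42, -0.86 and -0.24 in null replicates, -3.08, -1.78 and -3.33 in siRNA replicates 1, 2 and 4, with no value in replicate 3, and -2.37, -2.94 and -2.57 in wild-type replicates. Its null replicates 2 to 4 were above every siRNA and wild-type sample, and null replicate 1 was not. Ranked by value among the probes measured in a sample, it stood low, at percentiles 5.9, 7.9 and 19.6 in wild-type replicates. In null replicates it stood at 7.9, 28.2, 32.2 and 46.8. How far such low signals stood over background is unknown. The probe differed by 1.38 ± 0.58 for null minus siRNA (adjusted p = 0.176) and by 1.61 ± 0.64 for null minus wild type (95% interval 0.20 to 3.03; adjusted p = 0.245). For siRNA minus wild type the probes gave -0.11 ± 0.38 (8946; adjusted p = 0.902) and 0.23 ± 0.72 (3346; adjusted p = 0.89), opposite in sign and neither passing.

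**Figure D2:**
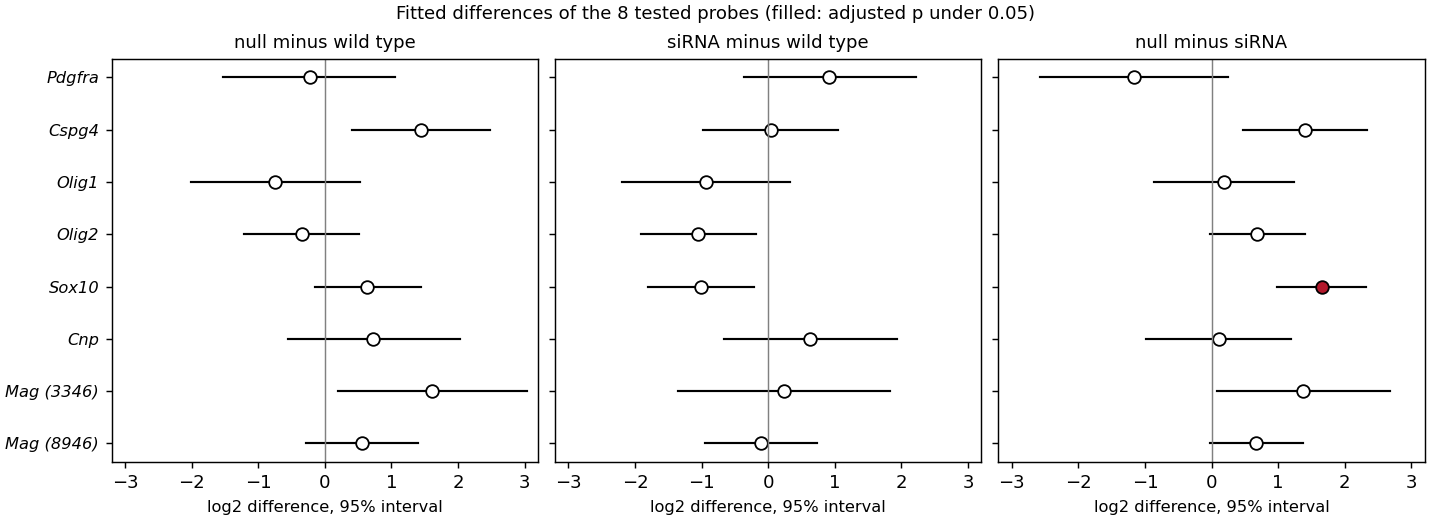
Fitted log2 differences (x axis) of the 8 tested probes with 95% intervals from limma, for null minus wild type, siRNA minus wild type and null minus siRNA. The filled point is the one with an adjusted p under 0.05, Sox10 at 1.66 between null and siRNA samples.

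Mbp, the basic protein that compacts myelin, and Mog, a glycoprotein of its outermost layer, were measured in few samples. Mbp probe 26022 read -1.06 in null replicate 3, -2.86, -1.91 and -2.04 in siRNA replicates 2 to 4, and -0.57 in wild-type replicate 3. Mbp probe 20422 read -3.67 in siRNA replicate 4 and -1.14 in wild-type replicate 3. Mog (chr17:37010740-37023398) has 3 probes, of which 4306 read -2.66 and -2.16 in null replicates 3 and 4, -4.10 in siRNA replicate 4 and -3.64 in wild-type replicate 3. Where these genes had a value it was below the block median in every sample. Mog probe 26678 read -3.33, -1.09 and -1.66 in null replicates 1, 3 and 4 and -1.01 in wild-type replicate 3, and probe 32278 read -1.10 in null replicate 3 and -0.61 in wild-type replicate 3.

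The missing values differed between samples of 1 group. Of these 5 probes, 4 had a value in null replicate 3, 2 in null replicate 4, 3 in siRNA replicate 4 and 5 in wild-type replicate 3. There was 1 in each of null replicate 1 and siRNA replicates 2 and 3, and 0 in null replicate 2, siRNA replicate 1 and wild-type replicates 4 and 6. All 5 were measured in 5 or fewer of the 11 samples, as were 27.7% of all named probes. Why a value is missing is not recorded, so a missing value gives no level for Mbp or Mog.

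**Figure D3:**
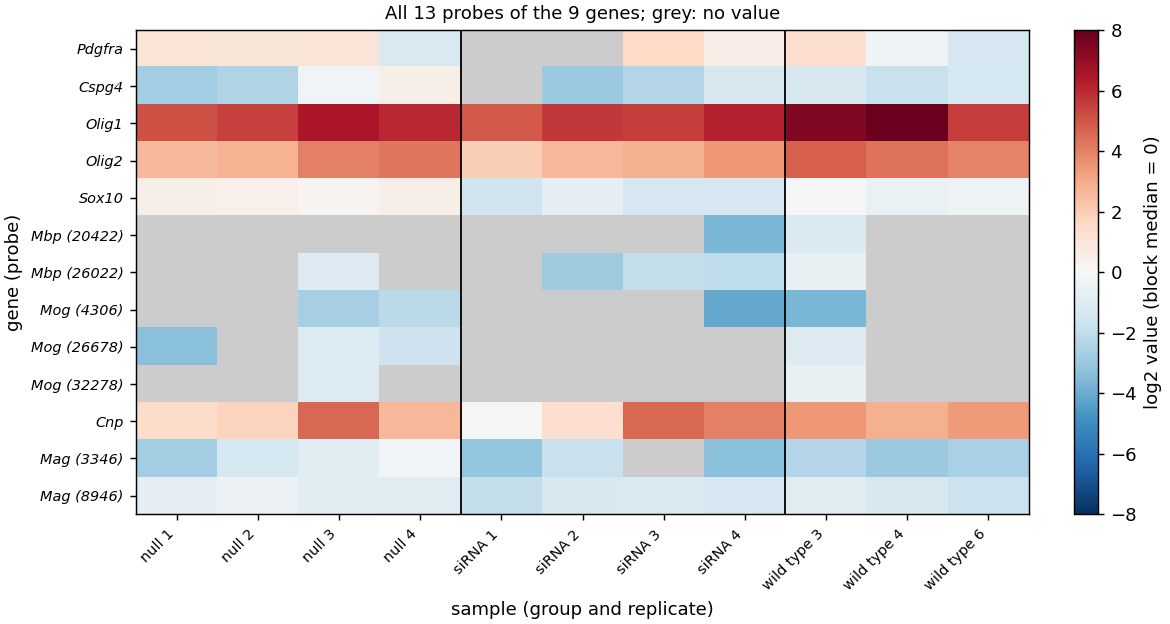
Log2 values (colour; 0 is the print-block median) of all 13 probes of the 9 genes (vertical axis) in the 11 samples (horizontal axis: null, siRNA, wild type), with grey for no value. Colours are to be read along a probe and not between probes; the 5 Mbp and Mog probes are mostly grey, and wild-type replicate 3 is the sample with a value for all 5.

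Counted by gene, with each gene represented by its probe measured in most samples, 0 of 7 tested genes passed for null minus wild type, where 0.377% of 17755 probes were called (67, and 2837 at an unadjusted p under 0.05, by limma). Before adjustment Cspg4 and Mag probe 3346 were under 0.05 there. For siRNA minus wild type 0 of 7 genes passed, where 7.40% of probes were called (1314, and 4163 at an unadjusted p under 0.05), with Olig2 and Sox10 under 0.05 before adjustment. For null minus siRNA 1 of 7 genes (14.3%) passed, where 6.20% of probes were called, and 1 gene of 7 does not set the group apart from that background. Of the 7 genes, 6 had a positive null minus siRNA difference, Pdgfra being the exception, where 54.1% of all tested probes were positive. Their median was 0.67 against 0.08 over all probes. The medians were 0.56 for null minus wild type (0.22 over all probes) and -0.11 for siRNA minus wild type (0.13 over all probes). The comparisons share samples and are not independent of each other.

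Further genes of the lineage were few among those that passed. Of 45 genes in a wider oligodendrocyte list, which holds other myelin proteins, lipid enzymes and regulators, 30 had a probe and 21 were tested. None passed for null minus wild type in limma (0 of 21, or 6 at an unadjusted p under 0.05). Over all tested probes 63.4% of these differences were positive (median 0.22). In the list 13 differences were positive and 8 negative (median 0.12). The highest of these were Gjb1, a gap junction protein of oligodendrocytes, at 1.18 (adjusted p = 0.247), Tcf7l2 at 1.14 (adjusted p = 0.151) and Sox8 at 1.11 (adjusted p = 0.47). The lowest were Apod at -3.36 (adjusted p = 0.109, on 2 null samples; -4.31 and adjusted p = 0.00867 with the replicate block, and adjusted p = 0.416 with array pairs), Mal at -1.24 (adjusted p = 0.193) and Trf at -1.11 (adjusted p = 0.27).

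For siRNA minus wild type 2 of the 21 passed, both lower in siRNA samples: Trf and Mal. That is 9.5% of the list, near the 7.40% of all probes called. Trf, the iron carrier transferrin, which oligodendrocytes make in the adult brain, read 2.70, 2.68, 1.71 and 1.36 in null replicates, 0.00, 0.00, 0.54 and 0.49 in siRNA replicates, and 3.60, 2.49 and 2.95 in wild-type replicates. All siRNA samples lay below all null and wild-type samples, as in the 10.8% of probes wholly lower in siRNA than in wild-type samples and the 6.37% wholly higher in null than in siRNA samples. Trf fell by 2.96 ± 0.46 on the log2 scale in siRNA against wild-type samples (adjusted p = 0.00483; 0.0504 without the set term), and was 1.85 ± 0.39 higher in null than in siRNA samples (adjusted p = 0.0203). The second of these was lost with array pairs as a random block (adjusted p = 0.116), without the set term (0.14), with all 14 samples (0.104), within replicates 3 and above (1.02, adjusted p = 0.225) and without null replicate 1 or 2 or siRNA replicate 1 (adjusted p 0.0594 to 0.0695). Mal, a lipid-raft protein of myelin, read -0.56, -0.91, -0.77 and -0.48 in null replicates, -1.30, -1.19, -2.25 and -2.57 in siRNA replicates, and 0.09, -0.06 and 0.86 in wild-type replicates. The 3 groups did not overlap for Mal, with siRNA lowest and wild type highest. The 10.8% and 6.37% given for Trf apply to its siRNA samples. No share was computed for null wholly below wild type. Mal fell by 2.39 ± 0.44 in siRNA against wild-type samples (adjusted p = 0.0101), a call that was lost without siRNA replicate 3 or 4 (adjusted p = 0.0517 and 0.0946) and without the set term (0.147). For null minus siRNA, Trf was the single gene of the 21 that passed (4.8%, against 6.20% of all probes). There 18 differences were positive and 3 negative (median 0.42), against 54.1% positive over all tested probes (median 0.08).

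The platelet-derived growth factor list, which holds the other receptor and the ligands, had 5 of 5 genes tested and 0 called in each of the 3 limma comparisons (1, 2 and 1 at an unadjusted p under 0.05 for null minus wild type, siRNA minus wild type and null minus siRNA). Pdgfb differed most from wild type, by 2.55 ± 0.64 in null (adjusted p = 0.0874) and 2.10 ± 0.64 in siRNA samples (adjusted p = 0.0714). With the replicate block both passed, at 2.90 (adjusted p = 0.0472) and 2.45 (adjusted p = 0.0314), but with array pairs the adjusted p were 0.452 and 0.334. The siRNA difference also passed with replicates 3 and above (2.22, adjusted p = 0.0451), without wild-type replicate 3 (2.81, 0.0425) and with array weights (2.79, 0.0193). Neither difference passed under the other alternatives. The Pdgfb differences were 0.75 in null and 0.30 in siRNA samples without the set term, 1.26 and 0.81 with 13 or with 14 samples, and 1.73 and 1.28 without wild-type replicate 4. Pdgfa, the main ligand of the Pdgfra receptor, differed by -0.40 in null (adjusted p = 0.751) and -0.80 in siRNA samples (adjusted p = 0.353). The ligand Pdgfd and the receptor Pdgfrb differed from wild type by -0.27 and -0.23 in null samples and by -1.23 and -0.81 in siRNA samples, with adjusted p of 0.16 and above. Between null and siRNA samples all 5 differences were positive, with a median of 0.45, and Pdgfd (0.96), Pdgfrb (0.58) and Pdgfb (0.45) had the highest. Over all tested probes 54.1% were positive there, with a median of 0.08.

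Markers of other cells also differed where Sox10 did. Of 12 microglial markers 9 were tested, of which 5 were called higher in null than in siRNA samples (median 1.56; 6.20% of all probes called), 6 lower in siRNA than in wild-type samples (median -2.27; 7.40% of all probes called) and 0 for null minus wild type (2 at an unadjusted p under 0.05 by limma; median -0.62). When array pairs were fitted as a random block, 1 of these 5 calls was kept (Laptm5, adjusted p = 0.0206) and 2 of the 6 (Laptm5, 0.00785, and C1qa, 0.0395). Of the 10 tested astrocyte markers, 3 were called higher and 1 (Gja1) lower in null than in siRNA samples, and 1 of these 4 calls (Aldoc, adjusted p = 0.0264) was kept with array pairs. Of 4 tested neuronal, 2 endothelial, 2 Schwann cell and 6 fibroblast and mural markers, 0, 1, 1 and 0 were called for null minus siRNA by limma (1, 1, 1 and 0 at an unadjusted p under 0.05), both calls being higher in null. Schwann cells also make Sox10, and the Schwann cell marker called there was Pmp22, at 1.30. Neither it nor the endothelial call (Flt1) was kept with array pairs (adjusted p = 0.167 and 0.173). Of the wider oligodendrocyte list, 17 genes were measured in every sample. Their mean ran from 0.42 to 1.27 in null, 0.14 to 0.46 in siRNA and 0.41 to 1.24 in wild-type samples. In bulk RNA the cells that made these transcripts cannot be told. That mean read 0.42, 0.55, 1.27 and 1.03 in null replicates 1 to 4, and 0.14, 0.46, 0.26 and 0.28 in siRNA replicates 1 to 4. The groups overlapped only in that null replicate 1 lay below siRNA replicate 2. Null was higher at every replicate number, as in Sox10. The part of any of these cells in the Sox10 difference was not tested.

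**Figure D4:**
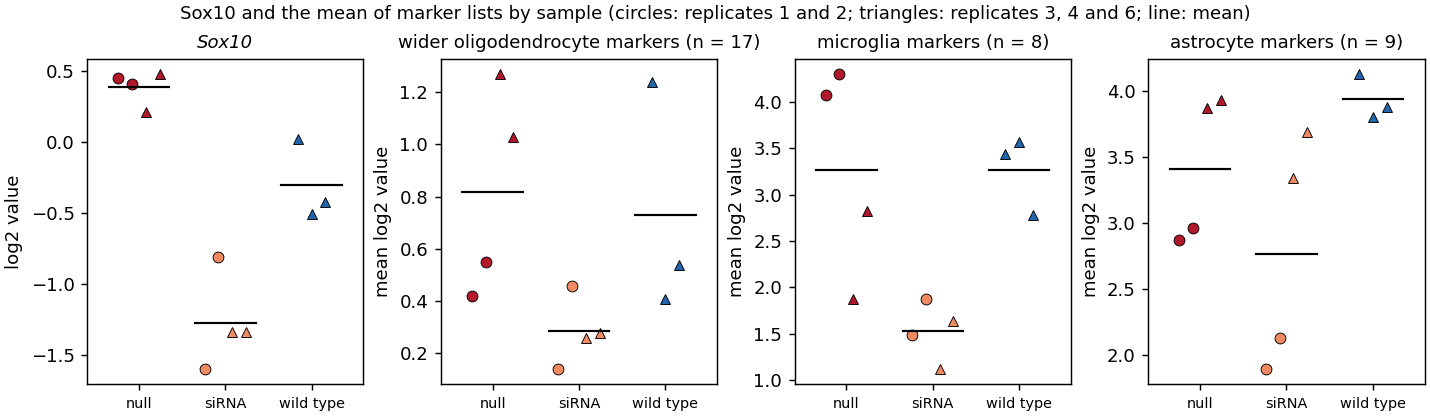
Sox10 (log2 value) and mean log2 values of 17 genes of the wider oligodendrocyte list, 8 microglial and 9 astrocyte markers (y axes, separate scales). Groups are null, siRNA and wild type, with circles for replicates 1 and 2, triangles for replicates 3, 4 and 6, and lines for group means. The microglial mean is 1.12 to 1.88 in siRNA samples, and reaches down to 1.88 in null and 2.78 in wild-type samples.

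For the 5 probes measured in all 11 samples, the genes with the most alike pattern were listed by Pearson correlation over the 11 samples, after the mean of each replicate set was subtracted, among 9304 other named probes. These samples share dyes and replicate sets and may share arrays, and the highest of so many correlations is high by selection. Sox10 was most like Cutal (0.979), Nrtn (0.972) and Slc46a3 (0.972). Olig2 was most like Sh3bgrl3 (0.980), Dhrs3 (0.971) and Pltp (0.969), and Olig1 most like Syngr1 (0.932), Chd4 (0.922) and Hps1 (0.921). Cnp was most like Pipox (0.921), Hip1 (0.920) and Ppp1r9b (0.907), and Mag probe 8946 most like Olfml1 (0.959), Arap1 (0.941) and Coro7 (0.941). No gene of the set was among the 3 most alike of another. Only these 5 probes of the set could appear, among so many others, so this says little of whether the genes vary together.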

How the data were processed

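Log2 values per probe were used as the authors deposited them. The scale was inferred from the values; the labels do not give how the arrays were scanned, corrected, filtered and normalized. Every sample's median within each of 48 print blocks of 700 probes was close to 0 (at most 0.00255 away). Probe genes came from the platform annotation, and coordinates and promoters from RefSeq, GRCm38.p6.

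From these values limma 3.58.1 in R 4.3.3 (lmFit, eBayes) fitted group, dye and replicate set (replicates 1 and 2 against 3 and above) over 11 samples. A probe needed 2 values per group and 2 null plus siRNA values per set, which 17755 had. P-values were two-sided, Benjamini-Hochberg adjusted over these probes, and called under 0.05. Missing values were not imputed. The fit was tested on simulated data with independent errors of 1 spread for all probes, which cannot show how likeness between samples affects the calls. The number of arrays limits the precision.

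Same-numbered null and siRNA samples deviated together from their group means (r = 0.621, 0.638, 0.647 and 0.565 over 14243 probes). Different-numbered null and siRNA samples within a replicate set did so too (0.598, 0.589, 0.483 and 0.399). These values therefore hold the replicate set as well as the number. Within a set the same number is also the same dye, so number and dye cannot be told apart in them. Same-numbered null and wild-type (0.387 and 0.305) and siRNA and wild-type samples (0.161 and 0.121) also deviated together. The replicate number was also fitted as a block.

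The 9 genes and all lists were chosen with earlier results of these data known. Named were every gene of the set, Gja1, called genes of the wider oligodendrocyte and platelet-derived growth factor lists (else the 3 highest and lowest), and the 3 genes most alike; Pmp22, Flt1, Laptm5, C1qa and Aldoc were named after their values were seen. Wild-type replicates 1, 2 and 5 were left out, except in the named alternatives. In the 13-sample fit, each of 1344 block columns of wild-type replicates 1 and 2 was placed where it matched the other samples best (1259 placed, median r 0.913), which favours likeness to them.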

Additional observations from a re-analysis of the deposited data

Results flagged for a closer look

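Pdgfra in null replicate 4 read -1.22 while the other null replicates read 0.99 to 1.03, a gap that takes most of the group's range. Mag probe 8946 in siRNA replicate 1 read -1.91 while the other siRNA replicates read -1.32 to -1.21. These were found among 13 groups of 4 samples by Dixon's test of an outlying sample. In that test chance marks about 1 in 20 groups of independent, normally spread values. Samples here were alike in pairs and came from 2 replicate sets, so that rate need not hold.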

How the results depend on the processing

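Of 504 values of the tested probes of the set under 22 alternatives, 454 kept their direction and side of the threshold, 5 lost the call, 5 gained one and 40 changed sign. All 5 losses were of Sox10 between null and siRNA samples, and its difference stayed between 1.50 and 1.84 when each sample was left out in turn. The number of genes of the set called for siRNA minus wild type was 1 with the replicate block and 0 to 1 with a sample left out. For null minus siRNA it was 0 without the replicate set, with array pairs, with all 14 samples and with 13 samples, 2 with replicates 3 and above only and after quantile normalization, and 0 to 2 with a sample left out.

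Probes called over the whole array moved more. For null minus wild type (67) they were 0 without the set term, 230 with the replicate block, 3 with array pairs, 1 with all 14 samples, 877 with replicates 3 and above, 0 with 13 samples, 110 after quantile normalization, 117 without dye, 17 with array weights and 0 to 147 with a sample left out. For siRNA minus wild type (1314) they were 45 without the set term, 207 with array pairs, 603 with all 14, 811 with 13 samples and 222 to 1306 with a sample left out. For null minus siRNA (1101) they were 75 without the set term, 1823 with the replicate block, 130 with array pairs, 167 with all 14, 1893 with replicates 3 and above, 625 with 13 samples, 2586 with array weights and 301 to 1558 with a sample left out.

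Signs changed for null minus wild type in Pdgfra (0.32 without the set term, 0.69 with 13 samples, 0.01 without dye, 0.03 with array weights), Olig2 (0.05 with 13 samples), Cnp (-0.67 without the set term, -0.15 with all 14 and -0.15 with 13 samples) and Mag (-1.06 for probe 3346 and -0.70 for 8946 with all 14). For siRNA minus wild type they changed in Cspg4 (-0.69 without the set term, -0.03 with the replicate block, -0.25 with all 14, -0.24 with replicates 3 and above, -0.26 with 13 samples), Cnp (-0.77 without the set term, -0.26 with all 14 and -0.26 with 13 samples), Mag probe 3346 (-0.10 without the set term, -0.00 with array pairs, -2.78 with all 14, -0.34 with 13 samples) and Mag probe 8946 (0.00 with array weights). In the platelet-derived growth factor list, null minus wild type was 0.04 in Pdgfa and 0.03 in Pdgfd with replicates 3 and above, 0.07 in Pdgfd with the replicate block and 0.30 in Pdgfrb with array weights. For null minus siRNA, Cnp was -0.66 with replicates 3 and above. Leaving out a sample changed the sign of null minus wild type in Pdgfra (-0.71 to 0.32), Olig2 (-0.57 to 0.03), Pdgfd (-0.71 to 0.07) and Pdgfrb (-0.51 to 0.18), of siRNA minus wild type in Cspg4 (-0.25 to 0.50), Mag probe 3346 (-0.11 to 1.87), Mag probe 8946 (-0.30 to 0.16) and Gja1 (-1.10 to 0.25), and of null minus siRNA in Cnp (-0.43 to 0.68). The cause of these changes was not tested. No intensity was used, so how far each signal stood over background is unknown.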
